A study of Mus musculus with 21 samples.

Results

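Cytochrome c oxidase, or complex IV, is the copper-containing enzyme at the end of the respiratory chain. The genes described here are its 15 nuclear-encoded subunits and 21 of its assembly factors, 36 genes in all of the 21872 in each of 2 count tables of mouse brain RNA. They were chosen by gene symbol for what their proteins do, and every one of the 36 has a row in both tables. The study compared mice given water (control) with mice given trientine (TETA), a drug that binds copper, which the submitters describe as making the mice copper-deficient. There were 6 control and 6 TETA libraries at embryonic day 18.5 (E18.5), and 5 control and 4 TETA libraries at 7 weeks. Every library is labelled as brain, and the shared protocol text names the prefrontal cortex of males aged 7 weeks. The dose, route and timing of TETA, the strain, the number of mothers and the region and sex at E18.5 are not given in the sources used here. Nothing in the labels says that replicates are separate animals, so p-values measure the spread between these libraries, which may be technical in part. At E18.5 each group has 2-part replicate numbers with 3 first numbers, whose meaning is not given, and libraries that share a first number may share a source, so there may be fewer than 6 independent sources a group.

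Complex IV passes electrons from cytochrome c to oxygen and pumps protons as it does so, and neurons depend on it for most of their ATP. Its catalytic core is encoded by mitochondrial DNA: COX1 holds the heme a groups and the CuB copper centre, COX2 holds the CuA copper centre, and COX3 completes the core. The nuclear subunits surround that core. Assembly factors bring in the parts: COX17 takes copper in the intermembrane space and passes it to SCO1, SCO2 and COX11, COX10 and COX15 make heme a, and others look after newly made COX1 and COX2. Several subunits have paired isoforms, with COX6A2 and COX7A1 best known from heart and skeletal muscle and COX4I2 from lung and from cells of vessel walls.

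The promoters of 6 members are shown as examples of the roles described. Cox6a1, Cox7a2 and Cox7a1 belong to the paired isoforms, Cox8a rose most with age among the abundant subunits, Cox10 was the member whose groups did not overlap at 7 weeks, and Sco1 stands for copper delivery. Cox4i1, Cox6a2 and Cox17, which carry larger results, are named only. Each is the 250 bases before the RefSeq gene start on the gene's strand, read 5′ to 3′, with coordinates of GRCm38.p6, and capitals mark matches to the motifs of the factors NRF1 and ETS described after the sequences.
Cox6a1, chr5:115348959-115349208, minus strand: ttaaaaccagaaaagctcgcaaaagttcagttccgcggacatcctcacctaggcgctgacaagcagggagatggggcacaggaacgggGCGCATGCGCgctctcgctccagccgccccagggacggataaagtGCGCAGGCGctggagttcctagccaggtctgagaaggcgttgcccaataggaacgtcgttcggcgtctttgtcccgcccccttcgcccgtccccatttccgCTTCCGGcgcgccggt
Cox7a2, chr9:79759854-79760103, minus strand: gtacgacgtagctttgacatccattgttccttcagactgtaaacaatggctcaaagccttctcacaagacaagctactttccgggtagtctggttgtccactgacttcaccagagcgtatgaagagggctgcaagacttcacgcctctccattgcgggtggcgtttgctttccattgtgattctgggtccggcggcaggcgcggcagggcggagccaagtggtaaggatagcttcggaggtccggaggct
Cox7a1, chr7:30183921-30184170, plus strand: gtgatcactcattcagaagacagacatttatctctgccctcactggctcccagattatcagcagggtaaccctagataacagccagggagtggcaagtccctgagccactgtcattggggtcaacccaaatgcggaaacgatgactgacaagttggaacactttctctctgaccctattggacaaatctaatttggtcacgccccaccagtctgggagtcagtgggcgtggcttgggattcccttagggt
Cox8a, chr19:7217617-7217866, minus strand: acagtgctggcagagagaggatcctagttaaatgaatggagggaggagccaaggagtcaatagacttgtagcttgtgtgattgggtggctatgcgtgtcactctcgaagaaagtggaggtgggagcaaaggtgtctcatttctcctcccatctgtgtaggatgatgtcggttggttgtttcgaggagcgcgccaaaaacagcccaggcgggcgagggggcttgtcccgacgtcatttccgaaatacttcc
Cox10, chr11:64079473-64079722, minus strand: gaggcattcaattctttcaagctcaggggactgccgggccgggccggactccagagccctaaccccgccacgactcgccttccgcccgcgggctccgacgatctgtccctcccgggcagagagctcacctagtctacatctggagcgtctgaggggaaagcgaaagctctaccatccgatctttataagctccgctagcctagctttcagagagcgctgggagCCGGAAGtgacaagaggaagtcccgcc
Sco1, chr11:67052420-67052669, plus strand: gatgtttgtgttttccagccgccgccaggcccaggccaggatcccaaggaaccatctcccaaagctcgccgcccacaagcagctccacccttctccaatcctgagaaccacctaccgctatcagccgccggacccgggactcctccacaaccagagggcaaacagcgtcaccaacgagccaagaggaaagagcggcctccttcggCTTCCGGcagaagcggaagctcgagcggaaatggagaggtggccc

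The motif letters searched, on both strands, were GCGCANGCG for NRF1, CCGGAAG for ETS factors such as GABP, and AANATGGCG for YY1, 3 factors known to act on respiratory genes. RefSeq promoters were matched for 29 of the 36 members, and Cox4i1, Cox4i2, Cox6a2, Cox6c, Cox17, Cox18 and Coa6 had no entry. The ETS letters lay in 8 of the 29 windows (27.6%), against 7.05% of the 27025 windows of all genes. They were in 6 of 18 assembly factors (Sco1, Cox10, Cox16, Cox20, Pet100 and Cmc1) and in 2 of 11 subunits (Cox6a1 and Cox6b1). The NRF1 letters lay in 4 of 29 (13.8%), against 5.33% of all windows, in Cox6a1, Coa5, Cmc1 and Cmc2. Cox6a1 had 3 NRF1 matches, of which the pair at the first capitals overlaps because the letters read on both strands there. The YY1 letters were in 0 of 29, against 1.12% of all windows. A match is a description of the letters and not a bound site.

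Copies of the complex IV transcripts can be compared between genes only per length, here as CPM (counts put on one scale by each library's total after TMM, a correction for library composition) divided by the kilobases of exon in GENCODE M21. In control libraries at E18.5 the subunits took 12 of the first 12 places, led by Cox4i1, an early-joining regulatory subunit that binds ATP, at 300 CPM per kb. Cox6a1 followed at 265, Cox6b1, which faces the intermembrane space, at 229 and Cox8a at 192. At 7 weeks Cox8a at 634 and Cox4i1 at 621 led in control libraries, and their difference was smaller than the SD of either. The assembly factors stood lower. Cox14 and Coa3, which bind newly made COX1, were highest among them at 7 weeks with 65.1 and 55.5 CPM per kb. Sco2 and Cox17 were lowest with 2.03 and 1.49. The divisor counts the exons of all listed transcripts together, and the transcripts in use were not told apart. In plain CPM the order of these 2 was the other way, with Cox17 at 5.556 and Sco2 at 2.538. Exon bases are shared with another gene on the same strand in Sco2 (856 of 1253 bases, with Tymp), Cox16 (2102 of 2748 bases, with Gm20498) and Cox17 (257 of 3740 bases, with Gm21987). The levels and changes of these genes are uncertain, since the handling of shared reads is not given in the sources used here.

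Each paired isoform set was dominated by the form known from most tissues. Cox4i2 stood at 1.52 CPM per kb at E18.5 and 1.31 at 7 weeks in control, against 300 and 621 for Cox4i1. Cox7a1 stood at 1.41 and 1.58, against 141 and 159 for Cox7a2. Cox6a2 stood at 0.337 and 8.83, against 265 and 423 for Cox6a1. The mitochondrial core could not be followed: the rows of mt-Co1, mt-Co2 and mt-Co3, like all 13 mt- rows, are listed at 0 in every library of both tables.

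The tables held 14678265 to 24308555 counts per library at E18.5 and 17838051 to 24035857 at 7 weeks. The 13 striatal neuron markers examined were all above 1 CPM in every group, as were the 8 markers of cortical excitatory neurons. At 7 weeks the striatal markers summed to 1192 to 1460 CPM in control and 554.4 to 696.4 CPM in TETA libraries, with no overlap, and 13 of 13 were lower past the threshold. One control library at 7 weeks, replicate 2, had 132.9 CPM of 8 skeletal muscle markers against 16.83 to 20.99 in the other 4, and control replicate 4 had 59.61 CPM of 5 choroid plexus markers against 3.941 to 5.368. These libraries are named again beside some members in which they hold the highest value. Whether the marker levels have a part in those values was not tested. In bulk RNA, fewer cells of a type and less RNA per cell cannot be told apart.

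At E18.5 no complex IV gene passed the test between TETA and control, and the medians of subunits and assembly factors lay near 0. Of the 36 members 35 could be tested, and Cox6a2, with 1 to 8 counts per library, was too low. With edgeR's quasi-likelihood method and p-values adjusted by Benjamini-Hochberg over 13794 genes, none passed the threshold of 0.05, and 0% of all genes did. None had an unadjusted p under 0.05, a level reached by 4.78% of all genes, and none had groups that did not overlap, as 0.312% of all genes had. DESeq2 also called 0 members. The median log2 fold change (TETA over control) was -0.0085 over the 14 subunits tested and -0.0077 over the 21 assembly factors, beside -0.0027 over all genes tested. Single libraries turned the sign of these medians: that of the subunits ran from -0.03 (without control replicate 1-2) to 0.04 (without TETA replicate 1-2), and without control replicate 1-1 the medians were 0.02 and 0.0075.

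For the abundant subunits the E18.5 intervals were narrow. Cox4i1 had its lowest, median and highest values at 191.6, 229.2 and 259.8 CPM in control and 191.7, 233.6 and 254.3 CPM in TETA libraries. These ranges are nearly the same, and the log2 fold change was 0.01 (95% interval -0.13 to 0.14). Over the 12 subunits near or above 90 CPM, the 95% intervals lay between -0.15 (Cox7c) and 0.17 (Cox7a2). The 3 subunits with the smallest p were Cox7c, Cox7a2l and Cox6b1. Cox7c, a small subunit of the membrane part, ran from 89.38 over 98.78 to 104.6 CPM in control and from 88.5 over 93.11 to 100.5 CPM in TETA, and the change was -0.06 on the log2 scale (SE 0.044, adjusted p = 0.996 in edgeR). Cox7a2l, which links complex IV to complex III in supercomplexes, ran from 110.9 over 121.6 to 126.2 CPM and from 107.1 over 117.8 to 122.6 CPM (-0.05, SE 0.042). Cox6b1 ran from 130.4 over 142.8 to 150.8 CPM and from 129.3 over 145.6 to 160.5 CPM (0.05, SE 0.047). In all 3 the groups overlapped over most of their range.

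The isoforms of low level were measured more loosely at E18.5. Cox4i2 had 1.086, 1.191 and 1.44 CPM in control and 0.7931, 1.137 and 1.546 in TETA libraries (lowest, median and highest). Cox7a1 had 0.5778, 0.7501 and 1.002 against 0.436, 0.6533 and 1.045, and its log2 fold change of -0.12 had an interval from -0.60 to 0.36. Cox6a2 had 0.06786, 0.242 and 0.3817 against 0.09331, 0.2167 and 0.492. The intervals of Cox4i2 (-0.42 to 0.35) and Cox7a1 include the log2 fold changes found at 7 weeks (-0.22 and -0.28). Cox6a2 was not tested. Cox6a1 had 125.4, 154.8 and 165.9 against 134.4, 148.8 and 169.3, and Cox7a2 had 82.59, 91.97 and 106.0 against 76.0, 97.87 and 108.6.

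None of the copper delivery genes passed the test at E18.5. Cox17, the copper chaperone of the intermembrane space, had 4.485, 5.266 and 7.072 CPM in control and 4.111, 5.166 and 6.068 CPM in TETA libraries, and its change was -0.11 on the log2 scale (SE 0.11, adjusted p = 0.996). Sco1, which helps load the CuA centre, had 12.57, 13.5 and 14.44 against 11.93, 13.46 and 16.46. Sco2, its partner, had 1.764, 2.51 and 3.149 against 1.738, 2.791 and 3.206. These groups lie over each other, with the TETA libraries of Sco1 more widely spread than the controls. Cox11, needed for the CuB centre, had 12.97, 14.01 and 16.75 against 12.73, 14.95 and 16.0, and Cox19, which works with COX11, had 46.74, 48.91 and 51.1 against 44.98, 50.06 and 53.38. Coa6, a helper of the SCO proteins, had 8.589, 8.9 and 9.286 in control and 6.798, 8.655 and 9.75 in TETA libraries, so that the control values lie inside the TETA range. The 6 log2 fold changes ran from -0.11 (Cox17) to 0.05 (Sco2), 4 above 0 and 2 below. That of Cox17 ran from -0.16 to -0.01 over 22 alternative fits.

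Among the other assembly factors at E18.5, Pet100, needed for complex IV assembly, came nearest to a difference. It had 9.778, 10.9 and 11.51 CPM in control and 8.944, 9.889 and 10.45 CPM in TETA libraries, and its log2 fold change was -0.13 (SE 0.063). In edgeR its p was 0.0516 before and 0.996 after adjustment. Cox16, which acts in the COX2 part, had 3.111, 3.809 and 4.688 against 3.424, 4.303 and 4.86 (0.18, SE 0.12, adjusted p = 0.996). Lrpprc, which stabilises mitochondrial mRNAs, had 84.6, 85.58 and 87.56 against 83.27, 89.51 and 94.63 (0.05, SE 0.035). In each of them the groups overlap. The heme a genes Cox10 and Cox15 had log2 fold changes of -0.05 and 0.03, the COX1 genes Cox14, Coa3, Cmc1, Surf1 and Taco1 lay between -0.03 and 0.02, and Cox18, Cox20, Coa5, Coa7 and Cmc2 between -0.05 and 0.03.

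**Figure D1:**
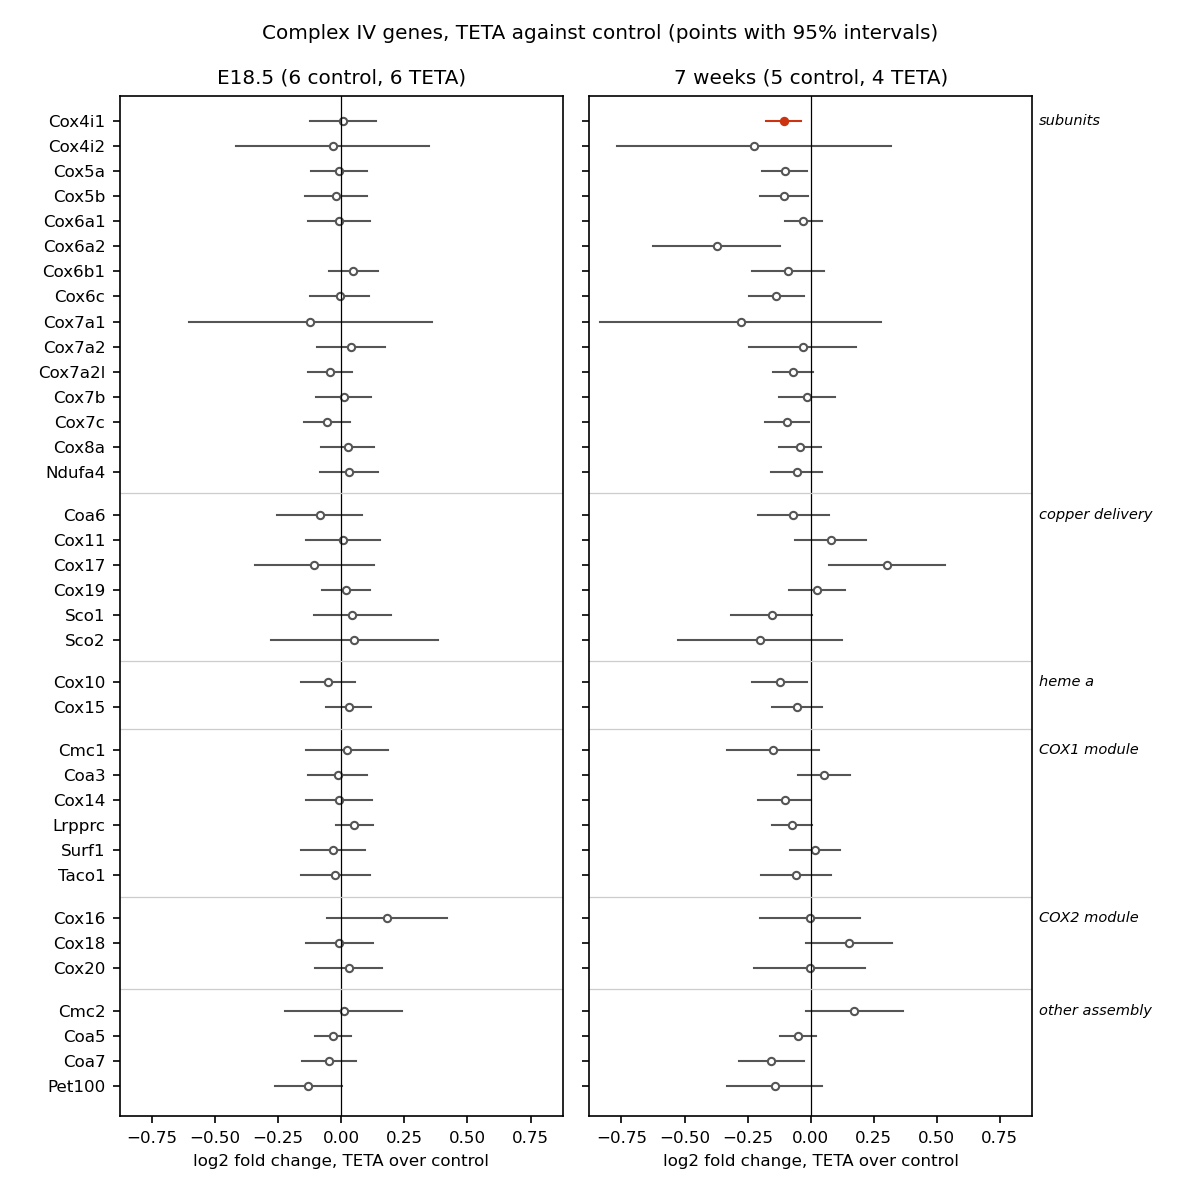
Log2 fold change of TETA over control for each member (points) with its 95% interval (lines), by role, at E18.5 on the left and 7 weeks on the right, with filled red points past the adjusted threshold. At E18.5 the points lie around 0 and Cox6a2 is not tested, while at 7 weeks all 15 subunits lie below 0 and only Cox4i1 is past the threshold.

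At 7 weeks 1 complex IV gene was lower in TETA libraries past the threshold: Cox4i1, by 0.11 on the log2 scale. All 36 members were tested, and 1 passing is below the 9.96% of all 14240 genes that passed (5.67% higher and 4.28% lower). An unadjusted p under 0.05 was found for 9 members, 8 of them lower and 1 higher, against 24% of all genes. The 15 subunits all had log2 fold changes below 0, with a median of -0.09 beside 0.0002 over all genes tested, of which 7105 were below 0 and 7135 above. Of the 21 assembly factors 14 were below 0, with a median of -0.05. The subunits share libraries and vary together, so their count below 0 is not 15 separate observations. Beside the striatal markers, 6 of 6 oligodendrocyte markers were below 0 (median -0.12, 0 past the threshold), with sums of 6230 to 7344 CPM in control and 5608 to 6566 CPM in TETA libraries, the highest in control replicate 2. Of 5 astrocyte markers 4 were below 0 (median -0.11) and Aldh1l1 was lower past the threshold, with sums of 988.8 to 1135 and 995.9 to 1041 CPM. Of 8 cortical excitatory markers 4 were below 0 (median 0.0064), and Bcl11b, which striatal neurons also express, and Rorb were lower past the threshold, with sums of 2263 to 2421 and 2261 to 2360 CPM. Of 5 endothelial markers 2 were above 0 and 3 below (median -0.02), and Flt1 was higher past the threshold. Of 6 parvalbumin interneuron markers 3 were above 0 and 3 below (median -0.02). Kcnc2 of these was higher past the threshold, and Tac1, which striatal neurons also express, was lower. Of 4 choroid plexus markers tested 3 were below 0 (median -0.93), and Clic6 was lower past the threshold. Choroid plexus sums were 59.61 CPM in control replicate 4, 3.941 to 5.368 in other controls and 3.175 to 5.797 in TETA libraries. Of 5 skeletal muscle markers tested 5 were below 0 (median -0.85, 0 past the threshold). Skeletal muscle sums were 132.9 CPM in control replicate 2, 16.83 to 20.99 in other controls and 15.92 to 18.64 in TETA libraries. Of 9 pericyte and smooth muscle markers 7 were above 0 and 0 passed the threshold. Of 5 microglial markers 2 were above 0, of 5 blood markers 1, and 0 of either passed. The markers named singly were named after their values were seen. What part these cell types have in the subunit values was not tested.

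Cox4i1 had 445.2, 499.7, 474.2, 463.1 and 492.2 CPM in control replicates 1 to 5 and 441.8, 441.4, 450.4 and 431.0 CPM in TETA replicates 1 to 4. The TETA values are close together, and the lowest control library lies below the highest TETA library. The log2 fold change was -0.11 (SE 0.033, 95% interval -0.18 to -0.04, adjusted p = 0.0452). The call rested on the choice of libraries: it held without control replicate 1 (adjusted p = 0.0148) and was lost without any other single library, with adjusted p from 0.0528 (control replicate 4) to 0.123 (control replicate 2). The size of the change moved little where the call was lost, with log2 fold changes from -0.12 (without TETA replicate 3) to -0.09 (without control replicate 2). It was also lost with library totals alone (0.0869), and with limma voom quality weights (0.0572), and it was kept in DESeq2 (0.0257).

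The 2 subunits next to it in p were Cox6a2 and Cox6c. Cox6a2, the muscle-type isoform, had 5.579, 7.211, 4.831, 6.13 and 6.267 CPM in control and 4.123, 4.571, 5.159 and 4.763 CPM in TETA libraries. Its groups overlap through control replicate 3 and TETA replicate 3, and the log2 fold change was -0.37 (SE 0.12, adjusted p = 0.0543). The highest value is that of control replicate 2, the library with the skeletal muscle markers, and without it the log2 fold change was -0.30 (adjusted p = 0.151). Without control replicate 3 it was -0.44 (adjusted p = 0.0237). Cox6c, a subunit of the membrane part, had 181.9, 218.8, 201.6, 186.6 and 198.7 CPM in control and 199.6, 164.9, 176.0 and 177.9 CPM in TETA libraries. TETA replicate 1 lies among the higher controls and the other TETA libraries lie below all controls, with a log2 fold change of -0.14 (SE 0.052, adjusted p = 0.109). Without TETA replicate 1, Cox6c and Cox5b passed the threshold (-0.19 with adjusted p = 0.0238, and -0.16 with adjusted p = 0.0281).

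The remaining subunits with an unadjusted p under 0.05 were Cox5a, Cox5b and Cox7c. Cox5a, a subunit on the matrix side, had a log2 fold change of -0.10 (SE 0.042, adjusted p = 0.136), and passed without control replicate 1 (-0.13, adjusted p = 0.0433). Cox5b, its zinc-binding neighbour, had -0.11 (SE 0.046, adjusted p = 0.161) and Cox7c -0.09 (SE 0.042, adjusted p = 0.174). The groups overlapped in all 3. The other 9 subunits had log2 fold changes from -0.28 (Cox7a1) to -0.01 (Cox7b), with intervals that include 0.

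The other isoforms showed no difference past the threshold at 7 weeks. Cox6a1 had 233.7, 257.6, 237.7, 232.5 and 246.1 CPM in control and 233.7, 249.1, 234.8 and 230.1 CPM in TETA libraries, nearly the same range (log2 fold change -0.03, interval -0.10 to 0.05). Cox7a2 had 92.8, 124.0, 110.9, 95.32 and 102.3 against 133.5, 78.99, 96.35 and 101.0, where TETA replicate 1 is the highest of all 9 libraries and TETA replicate 2 the lowest. Cox4i2 had 1.046, 1.383, 0.6979, 1.073 and 0.9443 against 1.289, 0.6689, 0.6019 and 0.9622. Cox7a1 had 1.003, 1.048, 0.7515, 0.613 and 0.8156 against 0.7731, 0.6689, 0.43 and 0.9622. At about 1 CPM these last genes have intervals from -0.77 to 0.32 and from -0.84 to 0.28.

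**Figure D2:**
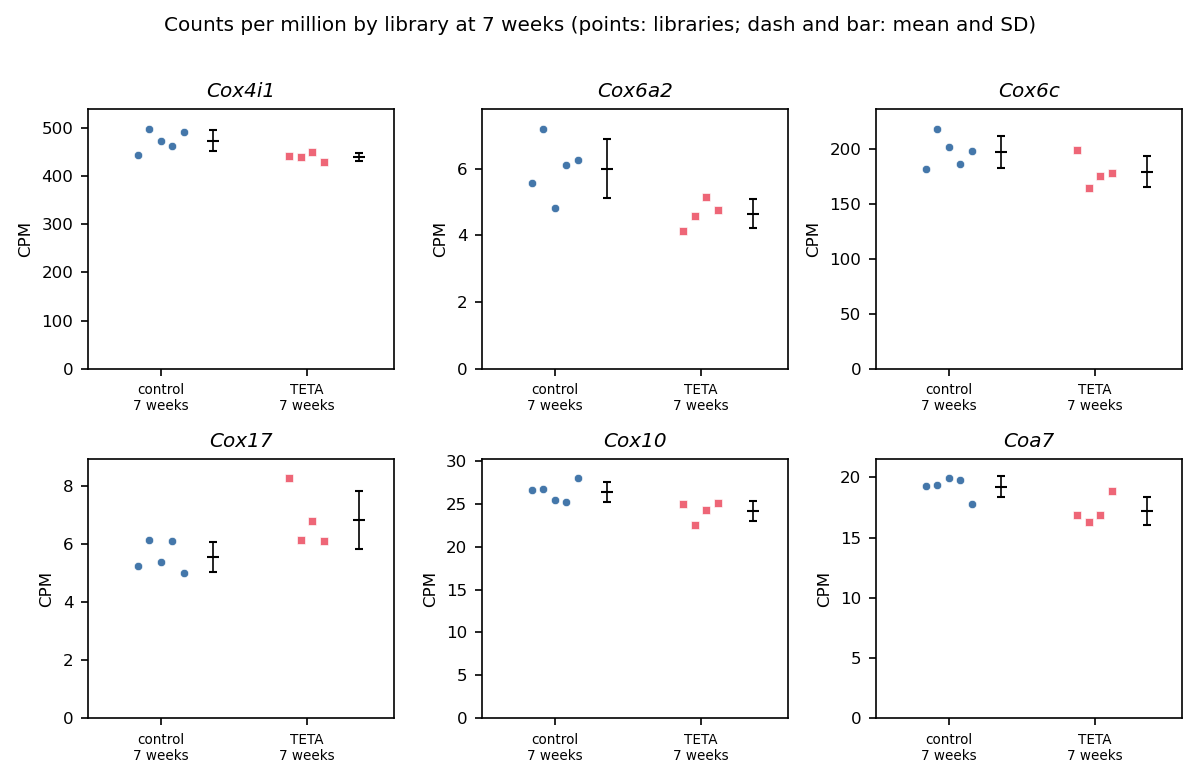
CPM of 6 members at 7 weeks in each control library (circles) and TETA library (squares), with the mean and SD beside them, on axes that start at 0. Groups overlap in Cox4i1, Cox6a2, Cox6c, Cox17 and Coa7, and the 4 Cox10 values in TETA libraries lie below the 5 control values.

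Among the assembly factors at 7 weeks, Cox17 was the one with an unadjusted p under 0.05 whose value was above control, and the direction of the copper delivery genes was mixed. Cox17 had 5.23, 6.121, 5.368, 6.079 and 4.979 CPM in control and 8.247, 6.132, 6.793 and 6.11 CPM in TETA libraries. TETA replicate 1 stands above the rest, and 2 of the TETA libraries lie at the level of the 2 highest controls. The log2 fold change was 0.30 (SE 0.11, 95% interval 0.07 to 0.53, adjusted p = 0.0915). Without TETA replicate 1 it was 0.20 (adjusted p = 0.323). The caveat on exon bases shared with Gm21987 holds for this change too.

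Sco1 had 11.2, 12.33, 12.13, 12.16 and 11.42 CPM in control and 11.77, 11.26, 9.803 and 9.766 CPM in TETA libraries. TETA replicates 3 and 4 lie below all controls and the other pair among them (log2 fold change -0.15, SE 0.077, adjusted p = 0.23). Sco2 had 2.441, 2.515, 2.308, 3.065 and 2.361 against 2.362, 1.951, 1.935 and 2.55 (-0.20, SE 0.16). Its highest value is that of control replicate 4, the library with the choroid plexus markers. Cox11 had 13.82, 13.67, 15.14, 14.66 and 14.12 against 15.72, 13.99, 16.3 and 14.05 (0.08, SE 0.067). Cox19 had 27.94, 27.88, 28.61, 24.16 and 26.57 against 27.36, 27.7, 27.6 and 27.52 (0.03, SE 0.053), with all TETA values inside the control range. Coa6 had 13.99, 15.64, 14.12, 14.25 and 14.08 against 14.56, 12.32, 13.97 and 14.0 (-0.07, SE 0.068), with its highest value in control replicate 2, the library with the skeletal muscle markers. Without that library the Coa6 value was -0.04, and without TETA replicate 2 it was -0.02. Single libraries also moved Sco2 (-0.13 without control replicate 4), Cox11 (0.04 without TETA replicate 3) and Cox19 (-0.0099 without control replicate 4). Of the 6 genes 3 were above 0 and 3 below, and 0 passed the threshold.

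**Figure D3:**
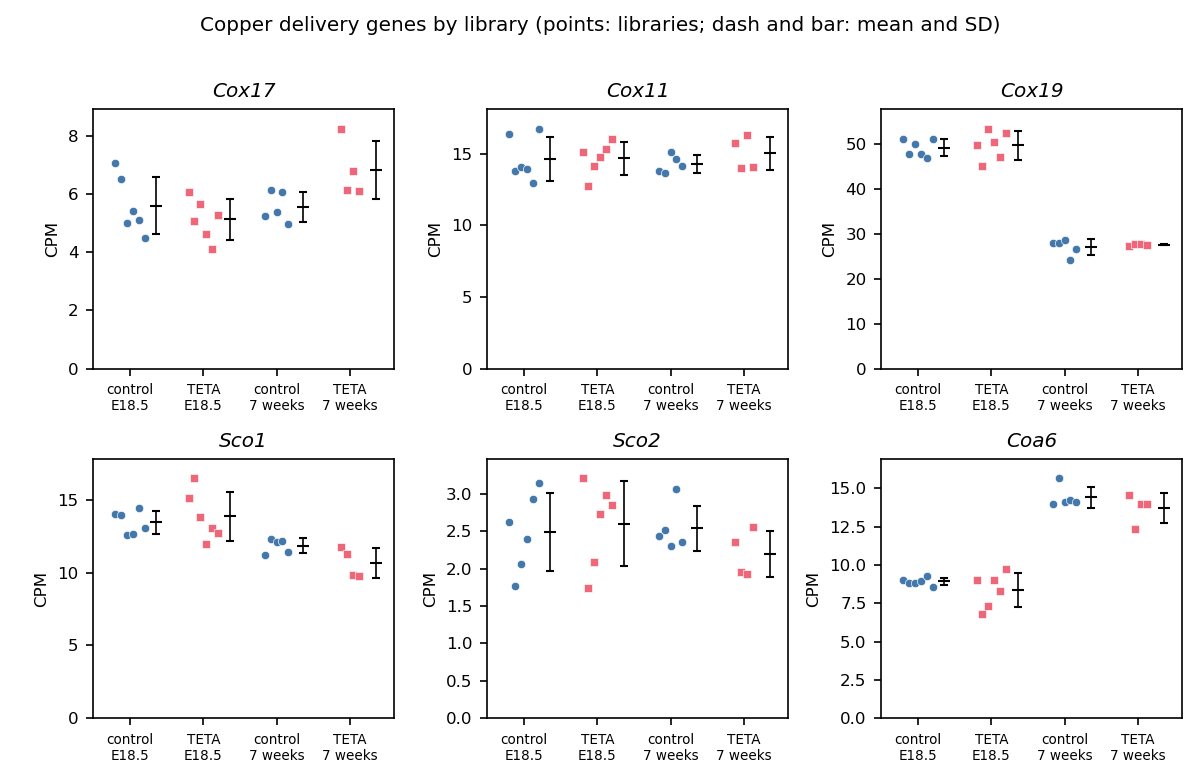
CPM of the 6 copper delivery genes in each library of the 4 groups (circles control, squares TETA, mean and SD beside them), with E18.5 and 7 weeks scaled separately and axes that start at 0. The ranges of control and TETA overlap for each gene at both ages, the highest Cox17 value, 8.247, is that of a TETA library at 7 weeks, and Cox19 and Coa6 differ between the ages.

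Cox10, which makes the first intermediate of heme a from heme b, was the only member of 36 whose groups did not overlap at 7 weeks, where 11.2% of all genes tested had groups that did not overlap. It had 26.59, 26.71, 25.39, 25.18 and 27.94 CPM in control and 24.91, 22.52, 24.29 and 25.06 CPM in TETA libraries. The gap between the groups is narrow, and the log2 fold change of -0.12 (SE 0.053) did not pass the adjusted threshold (adjusted p = 0.156). Cox15, the next enzyme of the path, had a log2 fold change of -0.05. Coa7, a cysteine-rich factor of the intermembrane space, had 19.27, 19.37, 19.92, 19.82 and 17.77 CPM in control and 16.84, 16.28, 16.9 and 18.91 CPM in TETA libraries. One control library lies below the highest TETA library, and the log2 fold change was -0.16 (SE 0.062, adjusted p = 0.121). The COX1 genes ran from -0.15 (Cmc1) to 0.05 (Coa3), and the COX2 genes Cox16, Cox18 and Cox20 from -0.0041 (Cox20) to 0.15 (Cox18). Pet100 had 16.0, 15.81, 16.0, 14.66 and 14.77 CPM in control and 15.89, 10.31, 14.75 and 14.62 CPM in TETA libraries, where TETA replicate 2 lies far below the others (-0.14, SE 0.09, and -0.03 without that library).

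Most other subunits of the respiratory chain also had values below 0 at 7 weeks, and these too vary together over the libraries. Of 36 complex I subunits 29 were below 0 (median -0.05, 0 past the threshold), and of 30 subunits of complexes II, III and V 29 were below 0 (median -0.06) and 3 passed the threshold, a share near the 9.96% of all genes. They were the ATP synthase subunits Atp5a1 (-0.12, SE 0.027, adjusted p = 0.00998), Atp5b (-0.08, SE 0.025, adjusted p = 0.0372) and Atp5o (-0.14, SE 0.038, adjusted p = 0.0226). Of 16 other genes around complex IV, such as further assembly and import factors, 10 were above 0 and 0 passed. Of 14 regulators of respiratory genes, 8 were below 0 and 0 passed. At E18.5 the 30 subunits of complexes II, III and V had 18 above 0 and complex I had 17 of 36 above 0, with 0 past the threshold.

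How high the subunits stood in a library went with how high other short transcripts stood in it. A library's deviation was taken as the median, over the genes of a list, of its log2(CPM + 1) minus the mean over the libraries of that age. At E18.5 TETA replicate 1-2 had the lowest subunits (-0.18) and the lowest value (-0.15) for the 445 other genes with under 1000 bases of exon. TETA replicate 2-2 had the highest subunits (0.15) beside 0.10 for short genes, and control replicate 1-2 had -0.12 beside -0.09. At 7 weeks control replicate 2 had 0.16 for the subunits and 0.07 for 465 short genes, and TETA replicate 2 had -0.13 and -0.07. Leaving respiratory and ribosomal protein genes out of the short genes (349 and 372 remained) gave -0.13 in TETA replicate 1-2, and 0.06 and -0.06 in replicates 2 of control and TETA at 7 weeks. Complexes I, II, III and V moved alongside, at -0.16 and -0.20 in TETA replicate 1-2.

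**Figure D4:**
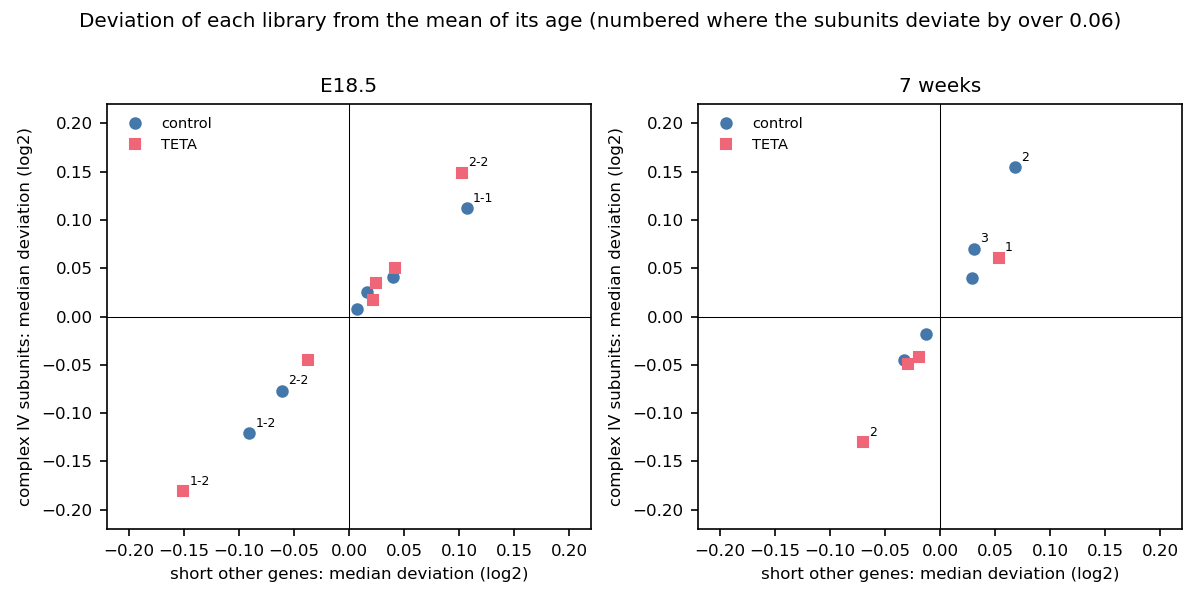
Each library's median deviation of the 15 or fewer complex IV subunits tested (vertical, log2) against that of short genes outside complex IV (horizontal, log2), at E18.5 on the left and 7 weeks on the right, with circles for control and squares for TETA. The points lie along a rising line at both ages, with control and TETA mixed at E18.5, and at 7 weeks control replicate 2 (0.16) and TETA replicate 2 (-0.13) are farthest apart.

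The same libraries held the extreme values of most subunits. Replicate 1-2 had the lowest value of 10 of 15 subunits among the E18.5 controls and again of 10 of 15 among the TETA libraries, where replicate 2-2 had the highest of 11. At 7 weeks control replicate 2 had the highest value of 13 of 15 subunits and control replicate 1 the lowest of 9, TETA replicate 1 the highest of 10 and TETA replicate 2 the lowest of 7. Among the assembly factors, the most that any one library held was 9 of 21 lowest or highest values. Without control replicate 2, or without TETA replicate 2, 13 of 15 subunits were below 0 at 7 weeks. With the short-gene value of each library as a covariate, a fit chosen after the data were seen, 11 of 15 were below 0 with a median of -0.06, Cox4i1 did not pass (-0.08, adjusted p = 0.147) and Cox17 did (0.38, adjusted p = 0.035). With the striatal marker score as a covariate, which separates the 7-week groups as the treatment does, 0 members and 1 gene of all tested passed. In that fit 11 of 15 subunits were below 0 with a median of -0.07, and Cox4i1 had a larger log2 fold change, -0.27, that did not pass (adjusted p = 0.995). What part short transcripts, striatal content or either replicate 2 has in the 7-week values was not tested further.

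The TETA effect was also compared between the ages in 1 model of all 4 groups. None of the 36 members passed the adjusted threshold, where 3.1% of 14660 genes did. An unadjusted p under 0.05 was found for 2 members, against 15.9% of all genes. Cox17 had a TETA effect 0.40 higher on the log2 scale at 7 weeks than at E18.5 (SE 0.16, adjusted p = 0.211). Lrpprc had an effect that was lower at 7 weeks (-0.14, SE 0.051, adjusted p = 0.153), with 70.44, 71.98, 73.7, 74.78 and 71.13 CPM in control and 68.25, 66.28, 68.84 and 71.49 CPM in TETA libraries at 7 weeks, where the groups overlap. For Cox4i1 the difference was -0.12 (SE 0.083, interval -0.29 to 0.04, adjusted p = 0.507), so a difference between the ages was not shown for the gene that passed at 7 weeks. Over 26 alternative fits the Cox4i1 difference ran from -0.17 to -0.08 and passed in 0 of them. The subunits had a median of -0.10 and the assembly factors of -0.04, beside -0.0079 over all genes. These medians moved with single libraries: that of the subunits ran from -0.15 (without TETA replicate 1-2 of E18.5) to -0.06 (without TETA replicate 3 of 7 weeks), and that of the assembly factors was -0.018 without control replicate 2 of 7 weeks and -0.019 without TETA replicate 2-2 of E18.5. With library totals alone they were -0.06 and -0.01, beside 0.03 over all genes.

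Most complex IV genes stood higher at 7 weeks than at E18.5. In control libraries, 29 of 36 members differed between 7 weeks and E18.5, 24 higher and 5 lower at 7 weeks, where 89.3% of all genes differed (44% higher and 45.3% lower). Age cannot be told apart from the table, the dissection or the sex of the mice, and the tables were scaled together for this comparison. Cell type markers differed between the ages as well: 6 of 6 oligodendrocyte markers (median log2 fold change 7.81), 5 of 5 microglial (3.11), 5 of 5 astrocyte (2.60) and 5 of 6 parvalbumin interneuron markers (2.14) were higher at 7 weeks, 11 of 13 striatal markers were higher (0.88), 6 of 8 cortical excitatory markers were lower (-0.54) and 5 of 5 blood markers were lower (-1.997). Of 5 skeletal muscle markers tested 4 were higher (2.7) and 0 lower, and of 4 choroid plexus markers 4 were higher (2.7). Control replicates 2 and 4 of 7 weeks held their highest sums. At E18.5 alone 4 of 6 oligodendrocyte, 5 of 6 parvalbumin interneuron, 4 skeletal muscle and 2 choroid plexus markers could be tested. The others passed the filter through the 7-week libraries where they are high, so the counts of these lists are a description. The part of these cell types in the age differences of the members was not tested. The subunits were 13 higher and 0 lower, with a median log2 fold change of 0.48 beside -0.02 for all genes, and the assembly factors 11 higher and 5 lower, with a median of 0.23. With library totals alone the median of all genes was -0.17, and the subunit and assembly medians were 0.34 and 0.09. With a mean of at least 50 counts, where 13 subunits were tested, the subunit median was 0.86.

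Cox6a2 had the highest ratio, from 0.22 ± 0.11 CPM at E18.5 (SD, n = 6) to 6.343 ± 0.933 CPM at 7 weeks (SD, n = 5), a log2 fold change of 4.78. With 1 to 8 counts per control library at E18.5 and 90 to 172 at 7 weeks, it passed the filter on low counts only through the libraries where it is high, so its call is a description, and without it the members higher were 23 and the subunits higher 12. Every control library at 7 weeks (5.1 to 7.631 CPM) lay above every one at E18.5 (0.06542 to 0.3665 CPM). Its partner Cox6a1 rose from 145.5 ± 14.1 to 255.1 ± 11.2 CPM (0.81), so Cox6a1 stayed the main form. Cox8a, a small subunit of the membrane part, rose from 101.4 ± 7.06 to 368.2 ± 22.6 CPM, a 3.63-fold change. Cox4i1 rose from 220.5 ± 22.0 to 501.7 ± 23.1 CPM (2.27-fold), while Cox4i2 (1.155 ± 0.122 and 1.087 ± 0.263 CPM) and Cox7a1 (0.7276 ± 0.149 and 0.894 ± 0.191 CPM) did not pass. Cox5b and Cox6c rose 2.04-fold and 2.05-fold, and Ndufa4, once counted with complex I, rose 1.88-fold. The other 6 subunits rose by log2 fold changes of 0.10 (Cox7a2l) to 0.48 (Cox7b). Of these, Cox7a2l had the opposite sign with library totals alone (-0.05) and Cox7a2 did not pass there. Cox7a2l also did not pass without control replicate 2-2 of E18.5 (0.08, adjusted p = 0.0649). Subunits of 1 complex differed widely in how much they rose.

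The assembly factors split. Copper delivery genes had 1 higher, Coa6 (8.576 ± 0.224 to 15.23 ± 0.744 CPM, 1.78-fold), and 1 lower, Cox19 (47.18 ± 1.77 to 28.56 ± 1.88 CPM, log2 fold change -0.72). Cox17 (5.385 ± 0.951 and 5.869 ± 0.551 CPM), Sco1 (12.92 ± 0.758 and 12.52 ± 0.535 CPM), Sco2 and Cox11 did not pass, with log2 fold changes of 0.15, -0.04, 0.15 and 0.10. Sco1 passed with library totals alone (-0.19, adjusted p = 0.0178) and Cox11 with a mean of at least 50 counts (0.15, adjusted p = 0.0403). Of the heme a pair, Cox10 rose by 0.47 and Cox15 fell by 0.32 on the log2 scale. The COX1 genes Cox14 (0.90), Taco1 (0.72), Surf1 (0.66), Coa3 (0.28) and Cmc1 (0.23) rose, and Lrpprc fell by 0.11. Cmc1 did not pass with library totals alone (0.09, adjusted p = 0.306), nor Lrpprc with a mean of at least 50 counts (-0.06, adjusted p = 0.0974). In the COX2 group Cox16 rose by 0.90 and Cox20 fell from 20.41 ± 0.997 to 9.616 ± 1.46 CPM (-1.09), while Cox18 did not pass. Cmc2 rose from 4.125 ± 0.69 to 14.06 ± 2.25 CPM (3.38-fold), Pet100 by 0.66 and Coa5 by 0.40, and Coa7 fell from 34.27 ± 1.98 to 20.31 ± 0.925 CPM (-0.76).

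**Figure D5:**
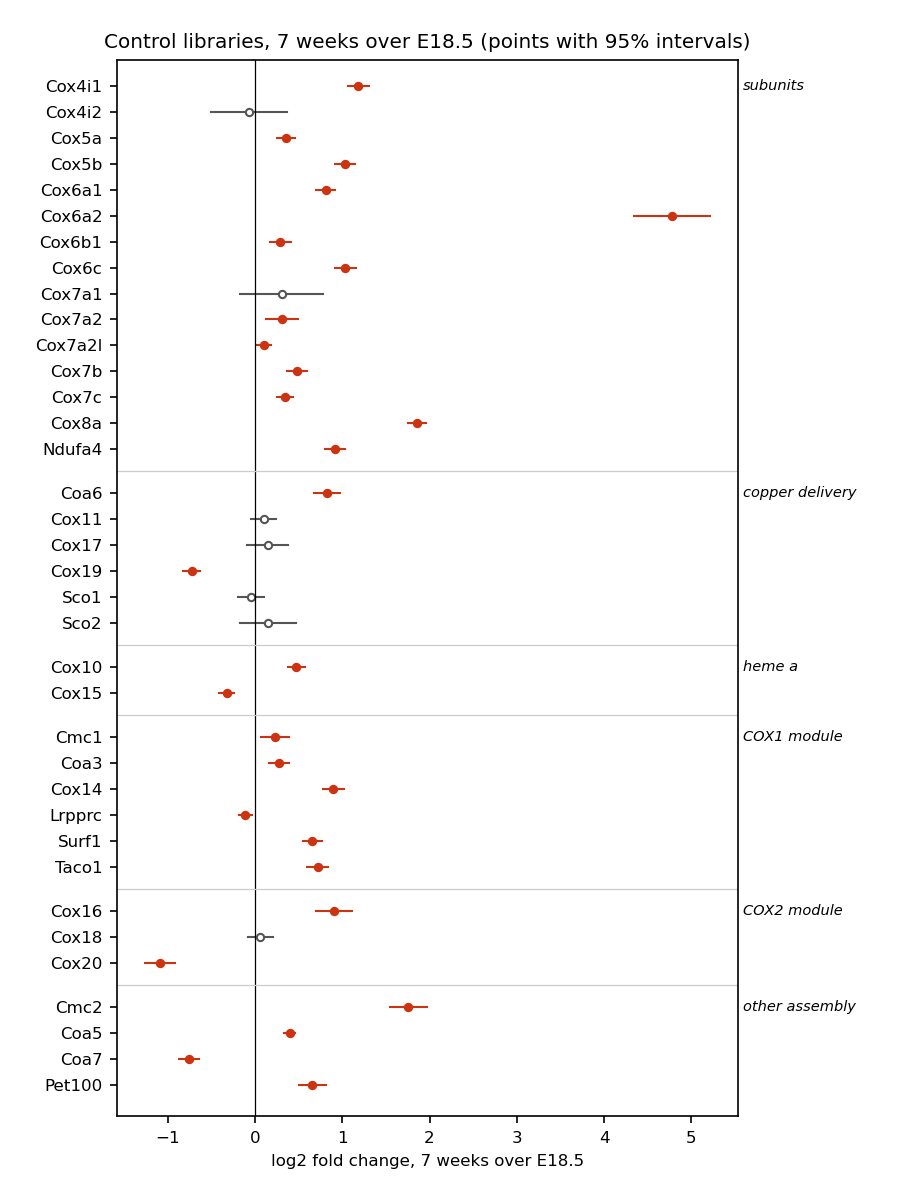
Log2 fold change of each member at 7 weeks over E18.5 in control libraries (points) with its 95% interval (lines), by role, with filled red points past the adjusted threshold. Cox6a2, which passed the filter only through the 7-week libraries, lies far to the right at 4.78, most subunits lie above 0, and Cox19, Cox15, Lrpprc, Cox20 and Coa7 lie below 0.

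Other parts of the chain also stood higher at 7 weeks, with 28 of 36 complex I subunits higher and 1 lower, and 22 of 30 subunits of complexes II, III and V higher and 1 lower, where 44% of all genes were higher and 45.3% lower. The regulators of respiratory genes went both ways, 4 of 14 higher and 8 lower, which is not far from those shares. Those higher were the coactivators Ppargc1a (1.29) and Ppargc1b (2.59), the nuclear receptor Esrra (1.23) and Chchd2 (0.69). Nrf1 (-1.16), Gabpa (-0.99), Gabpb1 (-1.39) and Yy1 (-0.42), whose motifs were searched in the promoters, were among those lower.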

How the data were processed

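RNA was measured by stranded poly(A) sequencing (TruSeq), per the labels' protocols. Reads were aligned with STAR 2.7.1a to mm10 and counted with featureCounts 2.0.1, per the submitters' processing notes. The authors deposited whole-number counts per gene symbol, 1 table per age. The annotation and the strand setting are not given in the sources used here, so reads of overlapping genes on opposite strands may not be told apart. All columns matched 1 sample each. The lowest chi-square per gene between replicate libraries was 2.3, so none was a copy of another. At E18.5, 1940 genes listed at 0 in control replicate 1-1 had multiples of 11 in every other library and were divided by 11, and 0 members were among them.

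Each age was fitted alone with edgeR 4.0.16 in R 4.3.3 (filterByExpr with minimum count 10, TMM, quasi-likelihood test, Benjamini-Hochberg over all genes, threshold 0.05). A model with all 4 groups gave the difference of TETA effects and the control age comparison. SE is the log2 fold change over the square root of F. DESeq2 1.42.0, limma 3.58.1 voom, other filters and scalings, left-out libraries, a replicate block and covariates were alternatives. The members were picked by function with no threshold on a value, but they, the lists and the tests were chosen with earlier results of these data known. Values are given for members past the threshold, the 3 subunits and 3 assembly factors of smallest p at each age, copper delivery genes and isoform pairs. Positions and exon lengths come from GENCODE M21 (GRCm38) and promoters from RefSeq (GRCm38.p6). Total counts limit the precision of low genes, and intervals cover the spread between these libraries only. The test was checked on simulated counts of genes that vary independently, with no change or with changes larger than those of the members under TETA. It was not checked at the size of the members' changes or for genes that vary together.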

Additional observations from a re-analysis of the deposited data

Results flagged for a closer look

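In 8 of 176 groups of 4 to 6 library values, 1 library stood apart from the others of its group by Dixon's criterion, where chance gives about 1 in 20, or 8.8. Control replicate 2 at 7 weeks had 132.9 CPM of skeletal muscle markers against 16.83 to 20.99 in the other controls (gap over range 0.964) and the highest Coa6, at 15.64 CPM against 13.99 to 14.25 (0.842). Control replicate 4 at 7 weeks had 59.61 CPM of choroid plexus markers against 3.941 to 5.368 (0.974) and the highest Sco2, at 3.065 CPM against 2.308 to 2.515 (0.727). TETA replicate 1-2 at E18.5, the library with the lowest short-gene value, had the lowest Cox8a, at 92.97 CPM against 107.1 to 114.6 (0.653), and the lowest Surf1, a factor for the heme a part of COX1, at 24.38 CPM against 27.84 to 29.54 (0.671). Control replicate 1-1 at E18.5 had the highest Cox4i2, at 1.44 CPM against 1.086 to 1.2 (0.678), and TETA replicate 3 at 7 weeks had the lowest Coa5, at 98.97 CPM against 103.5 to 104.3 (0.85).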

How the results depend on the processing

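At E18.5, 0 members passed the adjusted threshold under any alternative. The count with an unadjusted p under 0.05 went from 0 to 1 with library totals alone, with a mean of at least 50 counts, with the counts as deposited and with the short-gene covariate, and was 0 to 1 over left-out libraries. At 7 weeks the 1 member past the threshold (Cox4i1) became 0 with library totals alone, voom weights, the striatal covariate, and control replicates 2 and 4 both left out, and was 0 to 2 over left-out libraries. The 9 members with an unadjusted p under 0.05 became 5 with library totals alone, 2 with the striatal covariate and 3 without control replicates 2 and 4, and were 5 to 12 over left-out libraries (5 without TETA replicate 2). Between the ages, 2 members with an unadjusted p under 0.05 became 1 with library totals alone, and were 1 to 7 over left-out libraries (7 without TETA replicate 1-2 of E18.5). Cox7a2l had the opposite sign (-0.046) with library totals alone in the age comparison, where 27 rather than 29 members passed, and 28 to 29 passed over left-out libraries. The short-gene covariate, leaving out control replicates 2 and 4 together and leaving out libraries in the age comparison were chosen after seeing the data. The deviations of same-numbered control and TETA libraries correlated at -0.275 to 0.284 over 6 numbers at E18.5 (mean 0.0188), where 2 control libraries, 1-1 and 1-2, went best with their own number, and at -0.0692 to -0.0295 over 4 numbers at 7 weeks. Not every pair was above 0.1 at either age, so the numbers were not taken as pairs. With the replicate number as a block, 0 members passed at either age, and Cox4i1 at 7 weeks had -0.09 (adjusted p = 0.121). That fit also leaves out control replicate 5, whose number no TETA library has, and without it and with no block Cox4i1 also did not pass (-0.09, adjusted p = 0.0894).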
